A study of Mus musculus with 3 samples.

Results

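Cry1, Cry2 and Gm129 encode repressors of the circadian activator CLK:BMAL1, and their loci were examined for binding of both subunits of that activator in mouse liver. Their sites were all rows of the deposited site table that carry the symbol Cry1, Cry2 or Gm129, in any class, together with each peak of the CLK and BMAL1 lists that overlaps such a row by at least 1 bp. This gave 4 of the 2127 sites of the table and 3 of the 1886 genes to which a site was assigned. Gm129 carries the RefSeq symbol Ciart and is also known as Chrono.

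Livers came from adult C57BL/6 mice aged 3 to 6 months housed under a cycle of 12 h light and 12 h dark, and were taken at ZT8, which is 8 h into the light phase. One liver extract supplied all 3 libraries: a CLK ChIP made with a Novus antibody, a BMAL1 ChIP made with an Abcam antibody, and an Input of chromatin that saw no antibody. Each antibody has 1 library and the number of animals in the extract is not given in the sources used here, so no value below has a replicate and no value has a test. Intervals are exact 95% intervals that cover counting error only, and they compare these libraries rather than conditions.

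The number of uniquely mapped tags after removal of duplicates was 33057959 for CLK, 25217144 for BMAL1 and 18206506 for Input. Duplicates made up 11.5%, 12.8% and 3.39% of the mapped tags, respectively. Both ChIP libraries were set against the same Input. The deposited score of a peak is 10 times the negative log10 of its MACS p-value, so that the cutoff of the lists lies at 50. Fold enrichment is the ChIP signal over the local Input background, and FDR is the percent of false peaks that MACS estimates from swapping ChIP and Input.

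In the mammalian clock, CLK:BMAL1 binds the e-box, a short palindromic DNA word, and activates the Period and Cryptochrome genes together with other repressors. CRY1 and CRY2 return to the nucleus with PER proteins and block CLK:BMAL1 on chromatin, whereas CIART binds BMAL1 and represses the same dimer. Genes for these repressors are therefore both targets of CLK:BMAL1 and its inhibitors.

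The DNA under the summits is shown first, because the sites differed in the number and spacing of their e-boxes and in the position of each factor's summit relative to them. All sequences are from NCBIM37 (mm9), read 5′ to 3′ on the minus strand, from which all 3 genes are transcribed. Windows reach up to 60 bases on each side of a summit and stop at the annotated start of transcription. Capitals mark the canonical e-box CACGTG, the related e'-box AACGTG or its reverse complement CACGTT, and the nuclear receptor half-site AGGTCA.
Gm129 at the BMAL1 summit, chr3:95686175-95686273: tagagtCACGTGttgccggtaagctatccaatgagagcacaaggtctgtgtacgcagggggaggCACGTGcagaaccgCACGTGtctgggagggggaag
Gm129 at the CLK summit, chr3:95686560-95686680: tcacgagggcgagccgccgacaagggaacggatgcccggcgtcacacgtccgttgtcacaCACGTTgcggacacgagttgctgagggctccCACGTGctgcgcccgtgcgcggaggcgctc
Cry1 promoter, chr10:84647800-84647898: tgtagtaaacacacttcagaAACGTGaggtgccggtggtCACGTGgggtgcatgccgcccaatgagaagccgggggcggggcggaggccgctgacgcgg
Cry2 intron, chr2:92263986-92264106: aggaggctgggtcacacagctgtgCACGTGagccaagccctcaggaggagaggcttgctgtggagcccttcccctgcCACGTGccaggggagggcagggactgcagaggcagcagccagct
Cry2 start, chr2:92274334-92274454: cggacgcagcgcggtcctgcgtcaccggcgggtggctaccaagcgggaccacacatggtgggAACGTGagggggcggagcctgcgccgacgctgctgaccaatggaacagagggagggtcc
Cry2 CLK only site, chr2:92262003-92262123: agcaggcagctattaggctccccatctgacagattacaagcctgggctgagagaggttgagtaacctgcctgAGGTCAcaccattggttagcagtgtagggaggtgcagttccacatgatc

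Binding of both factors was found at all 3 genes. Of the 4 sites, 3 were of class CLK:BMAL1, meaning that a CLK and a BMAL1 peak overlap, against 9.92% of all 2127 sites. These were the promoter of Gm129, the promoter of Cry1 and an intron of Cry2. The remaining site, in another intron of Cry2, was of class CLK only, which held 25.8% of all sites. No site of class BMAL1 only carried any of these symbols.

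A CLK:BMAL1 site at the start of Cry2 carried the symbol mPHLL2 in the table, and so lay outside the rule that chose the sites. The start assigned to mPHLL2 lies within 100 bp of the GENCODE start of Cry2, on the same strand. This site was recognised as one of Cry2 only after its values had been seen, and it is described as the Cry2 start site beside the 4 others. With it, 5 sites belonged to the 3 genes.

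**Figure D1:**
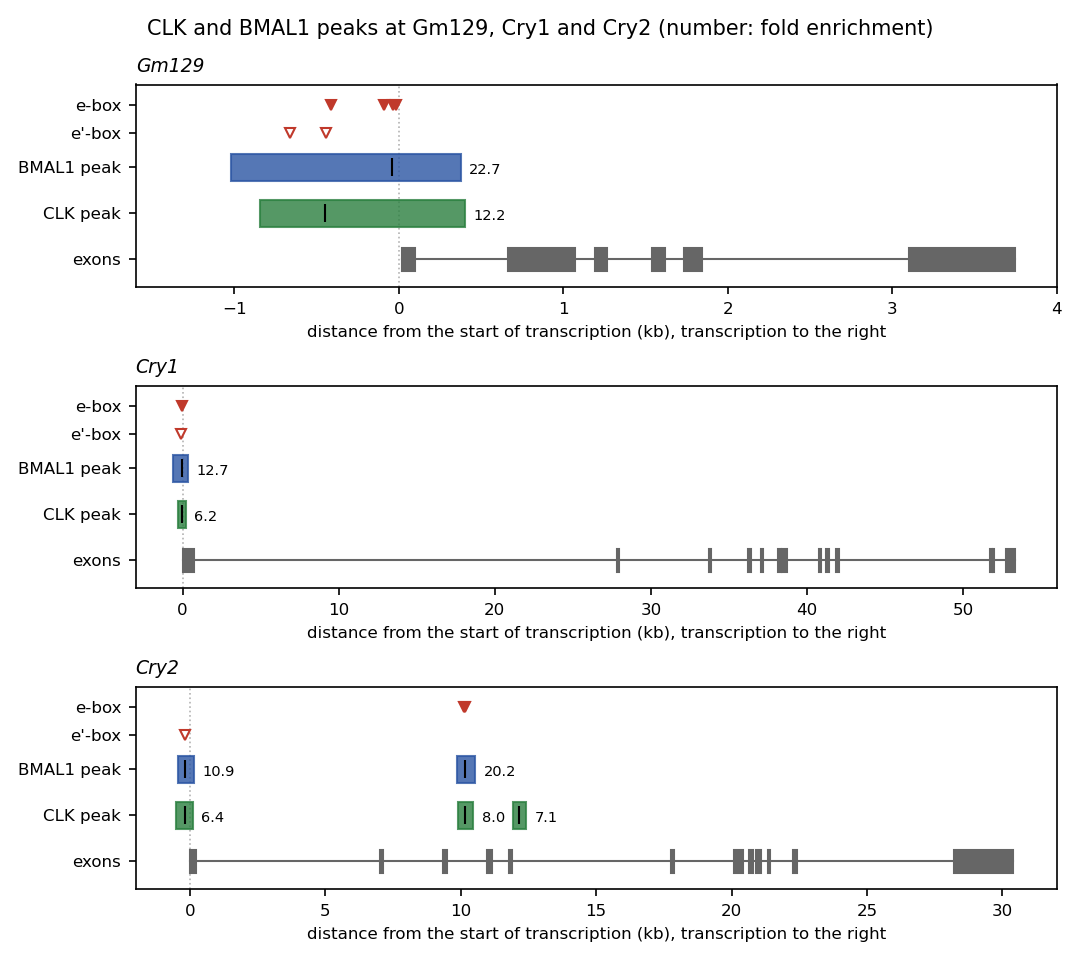
CLK peaks (green) and BMAL1 peaks (blue) at Gm129, Cry1 and Cry2, against distance from the GENCODE start of transcription in kb, with exons of the longest annotated transcript (grey), summits (black ticks), e-boxes (filled triangles) and e'-boxes (open triangles). Gm129 and Cry1 have peaks at the start only, whereas Cry2 has BMAL1 peaks at the start (fold enrichment 10.9) and in an intron (20.2), and a CLK peak further into the gene with no BMAL1 peak over it (7.10).

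The Gm129 promoter was among the most strongly bound sites of both lists. Its CLK peak on chromosome 3, from 95685769 to 95687019, held 206 tags, or 6.23 RPM (5.41 to 7.14; RPM, tags per 1000000 tags left after duplicate removal), with a score of 676 and a fold enrichment of 12.2. Its BMAL1 peak, from 95685798 to 95687192, held 286 tags, or 11.3 RPM (10.1 to 12.7), with a score of 1492 and a fold enrichment of 22.7. FDR was 0% for both peaks.
By score, the CLK peak ranked 2 of 759 and the BMAL1 peak 2 of 1578. Among overlapping peaks, the CLK peak followed that of Per1 (score 701) and preceded that of Pck1 (666), which encodes a gluconeogenic enzyme, and the BMAL1 peak stood between 2 peaks of Nr1d1, which encodes REV-ERBα (2037 and 1326). By fold enrichment, however, the same peaks ranked 12 and 14. The peaks were 1251 bp and 1395 bp long, against a median of 500.5 bp for CLK and 606.5 bp for BMAL1 over all overlapping pairs.

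The listed summits of both factors lay at different positions of the Gm129 promoter, although the peaks shared 1222 bp and their centres were 101 bp apart. The lists give a single summit for each peak, so that a further maximum within these long peaks would not be seen. The BMAL1 summit lay 39 bp upstream of the GENCODE start, and the CLK summit 446 bp upstream, a distance of 407 bp. Only 9 of the 212 overlapping pairs had summits further apart, and the median distance was 21 bp. Summits lay within 50 bp of each other in 77.8% of the pairs, including those at Cry1, in the Cry2 intron and at the Cry2 start.
The e-boxes nearest to the BMAL1 summit of Gm129 were not the one nearest to its CLK summit. CACGTG occurred at 95686190 to 95686195, 95686204 to 95686209 and 95686262 to 95686267, and the centres of these words were 20.5, 6.5 and 51.5 bp from the BMAL1 summit. The remaining e-box, at 95686584 to 95686589, was 33.5 bp from the CLK summit and 373.5 bp from the BMAL1 summit. An e'-box at 95686615 to 95686620 was centred 2.5 bp from the CLK summit, 25 bp beyond that e-box.
Both peaks covered all 4 e-boxes, a number reached by 1.9% of CLK:BMAL1 sites (4 of 211). That share was counted over whole peaks without regard to their length, and the peaks of Gm129 were long. Within 100 bp of the CLK summit, Gm129 had 1 e-box, and 59.2% of CLK:BMAL1 sites had 1 or more. The e-boxes nearest to the start were separated by 8 bp, and the next gaps were 52 bp and 316 bp. The CLK peak also held the D-box word TTATGTAA or TTACGTAA, the binding site of DBP, TEF and HLF, at 95686818 to 95686825, as did 8.53% of CLK:BMAL1 sites. Another e'-box, at 95686835 to 95686840, and AGGTCA, at 95686874 to 95686879, lay further upstream. Both summits lie within an intron of C920021L13Rik, which is annotated on the opposite strand.

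The Cry1 promoter stood higher in the BMAL1 list than in the CLK list. Its CLK peak on chromosome 10, from 84647588 to 84648065, held 34 tags, or 1.03 RPM (0.712 to 1.44), with a score of 71.5, a fold enrichment of 6.19 and an FDR of 4.98%. Its BMAL1 peak, from 84647417 to 84648383, held 74 tags, or 2.93 RPM (2.30 to 3.68), with a score of 219, a fold enrichment of 12.7 and an FDR of 0%.
The CLK peak ranked 201 of 759 by score and 429 by fold enrichment, whereas the BMAL1 peak ranked 50 of 1578 and 85. In the BMAL1 order of overlapping peaks, Cry1 stood between Fbxl22 (222) and Itpr2 (218), and in the CLK order between BC029726 (71.7) and Plcxd2 (71.2).
Summits of CLK and BMAL1 were 3 bp apart, at 39 bp and 36 bp upstream of the start. One e-box lay at 84647854 to 84647859, centred 18.5 bp from the CLK summit and 21.5 bp from the BMAL1 summit, and an e'-box lay 13 bp further upstream at 84647873 to 84647878. This was the only member site where e-box and e'-box were both within 100 bp of both summits, though Gm129 had both near its CLK summit. Within 100 bp of the CLK summit, 59.2% of CLK:BMAL1 sites had CACGTG and 16.6% had AACGTG. The share with both words was not counted.

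The Cry2 intron was bound more strongly by BMAL1 than the Cry1 promoter. Its CLK peak on chromosome 2, from 92263741 to 92264305, held 68 tags, or 2.06 RPM (1.60 to 2.61), with a score of 121, a fold enrichment of 8.03 and an FDR of 6.90%. Its BMAL1 peak, from 92263660 to 92264350, held 135 tags, or 5.35 RPM (4.49 to 6.34), with a score of 591, a fold enrichment of 20.2 and an FDR of 0%.
By score, the BMAL1 peak ranked 12 of 1578 and the CLK peak 58 of 759, and by fold enrichment they ranked 19 and 118. In the score order of overlapping peaks, the BMAL1 neighbours were AK036974 (594) and Dbp (541), and the CLK neighbours were AU019990 (123) and Pfkfb3 (121).
This site lay in intron 3 of the 11-exon transcript of Cry2, 10162 bp from the start by the table and 656 bp from the nearest exon. The long non-coding RNA gene D930015M05Rik, annotated on the opposite strand, also has an intron there. The 2 summits were 8 bp apart and lay between 2 e-boxes, at 92264024 to 92264029 and 92264077 to 92264082, which were separated by 47 bp. Between 19.5 and 33.5 bp separated the centres of these e-boxes from the summits. A count of 2 or more e-boxes within 100 bp of the CLK summit was reached by 19.4% of CLK:BMAL1 sites.

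The Cry2 start site was bound by both factors, with similar raw tags before depth was considered and a higher fold enrichment of BMAL1. Its CLK peak, from 92274096 to 92274700, held 49 tags, or 1.48 RPM (1.10 to 1.96), with a score of 73.5, a fold enrichment of 6.44 and an FDR of 5.41%. Its BMAL1 peak, from 92274049 to 92274656, held 46 tags, or 1.82 RPM (1.34 to 2.43), with a score of 95.9, a fold enrichment of 10.9 and an FDR of 0.79%. They ranked 185 of 759 and 254 of 1578 by score, 357 and 148 by fold enrichment, and 87 and 173 by tags.
The summits lay 177 bp and 194 bp upstream of the GENCODE start and 17 bp apart. No CACGTG occurred in either peak, whereas 67.8% of CLK:BMAL1 sites had the word anywhere in the peak. An e'-box at 92274387 to 92274392 was centred 4.5 bp from the BMAL1 summit and 12.5 bp from the CLK summit. AACGTG lay within 100 bp of the CLK summit at 16.6% of CLK:BMAL1 sites.

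Within Cry2, BMAL1 was thus higher in the intron than at the start, by 2.93-fold in tags (2.09 to 4.20), by 2.58-fold in tags per kb of peak and by 1.85-fold in fold enrichment. For CLK, the intron was 1.39-fold higher in tags (0.947 to 2.05), an interval that includes no difference. It was 1.49-fold higher in CLK tags per kb of peak and 1.25-fold higher in CLK fold enrichment. The BMAL1 summits of the start and the intron were 10340 bp apart.

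The CLK only site of Cry2 had no BMAL1 peak over it. Its CLK peak, from 92261774 to 92262255, held 45 tags, or 1.36 RPM (0.993 to 1.82), with a score of 88.4, a fold enrichment of 7.10 and an FDR of 4.96%, and ranked 121 of 759. Its tags were above the median of 21 over the 548 CLK only sites, and its fold enrichment was above their upper quartile of 6.88. The peak lay in intron 5, 256 bp from the nearest exon, and 1405 bp from the BMAL1 peak of the intron 3 site.
No CACGTG was found in this peak. Within 100 bp of the summit, 10.4% of CLK only sites held the word, against 59.2% of CLK:BMAL1 sites, which include Gm129, Cry1 and the Cry2 intron. AGGTCA, a half-site bound by nuclear receptors such as REV-ERB and ROR, occurred 14.5 bp from the summit of this peak, at 92262046 to 92262051. The share of sites with AGGTCA no further than 100 bp from their summit was 16.1% for CLK only. It was 22.7% for CLK:BMAL1 and 14.8% for BMAL1 only, so the half-site did not set CLK only sites apart. BMAL1 tags outside peaks are not part of the lists, so that it can be said only that no BMAL1 peak passed the cutoff there.

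**Figure D2:**
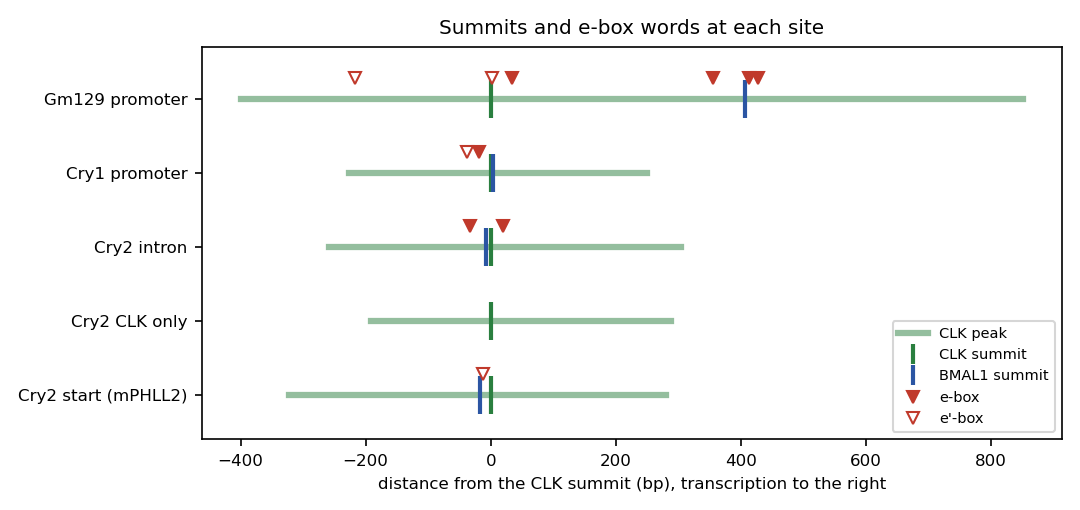
Positions of the CLK summit (green tick, at 0), the BMAL1 summit (blue tick), e-boxes (filled triangles) and e'-boxes (open triangles) at each site, in bp from the CLK summit with transcription to the right; the pale green bar is the CLK peak. At Gm129 the BMAL1 summit lies 407 bp from the CLK summit, next to 3 e-boxes, whereas at Cry1, in the Cry2 intron and at the Cry2 start the summits are 3, 8 and 17 bp apart.

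Base composition differed between these sites. GC content within 100 bp of the CLK summit was 69.2% at Gm129, 72.6% at Cry1, 65.2% in the Cry2 intron, 68.7% at the Cry2 start and 51.7% at the CLK only site. The medians were 58.2% over CLK:BMAL1 sites and 51.2% over CLK only sites. The intron of Cry2 had 2 CpG in this window, whereas Gm129 had 24, Cry1 26 and the Cry2 start 18, so that its GC content came with few CpG.

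The RefSeq promoters of all 3 genes, matched by symbol in GRCm38.p6 and reaching from 250 bp before to 50 bp after the start, were also searched. CACGTG was present in 7.15% of the 32851 promoters. It lay 57 bp upstream in Cry1 and 41, 55 and 113 bp upstream in Ciart, and was not found in Cry2. AACGTG, present in 4.68% of promoters, lay 76 bp upstream in Cry1 and 163 bp upstream in Cry2. The RefSeq starts of Ciart and Cry2 differ from the GENCODE starts used for the summits. From the GENCODE starts, the same e-boxes of Ciart were centred 18.5, 32.5 and 90.5 bp upstream, and the AACGTG of Cry2 189.5 bp upstream. None of the 3 held TTATGTAA or TTACGTAA (1.06% of promoters), AGGTCA (16.3%), or the RRE (0.773%), the longer element of REV-ERB and ROR. CCAAT, a common promoter word that was searched only after the sequences had been seen, occurred in all 3 and in 37.4% of promoters. All words were searched on both strands.

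The signal of both factors was next compared within each site. A higher RPM of BMAL1 than of CLK was found at all 3 member sites of class CLK:BMAL1, as at 87.3% of the 212 overlapping pairs, which 211 peaks of each list form. The ratio of BMAL1 to CLK was 1.82 at Gm129 (1.52 to 2.19), 2.85 at Cry1 (1.88 to 4.42) and 2.60 in the Cry2 intron (1.93 to 3.54). Over all pairs, the median was 1.55 with quartiles of 1.22 and 1.99. A higher ratio was found at 71 pairs for Gm129, 9 pairs for Cry1 and 18 pairs for the Cry2 intron. By the ratio of fold enrichments, these counts were 56, 37 and 15, so that Cry1 and the Cry2 intron changed places.
At Cry1 the ratio depended on peak width, since the BMAL1 peak was 967 bp long and the CLK peak 478 bp. Per kb of peak, it was 1.41, and the ratio of the fold enrichments was 2.05. For the Cry2 intron these values were 2.13 and 2.51, and for Gm129 they were 1.63 and 1.86. The Cry2 start site had a ratio of 1.23 (0.805 to 1.88), an interval that includes equal signal, and a ratio of fold enrichments of 1.69.
These ratios compare antibodies as well as factors, and the share of each in them was not tested.

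**Figure D3:**
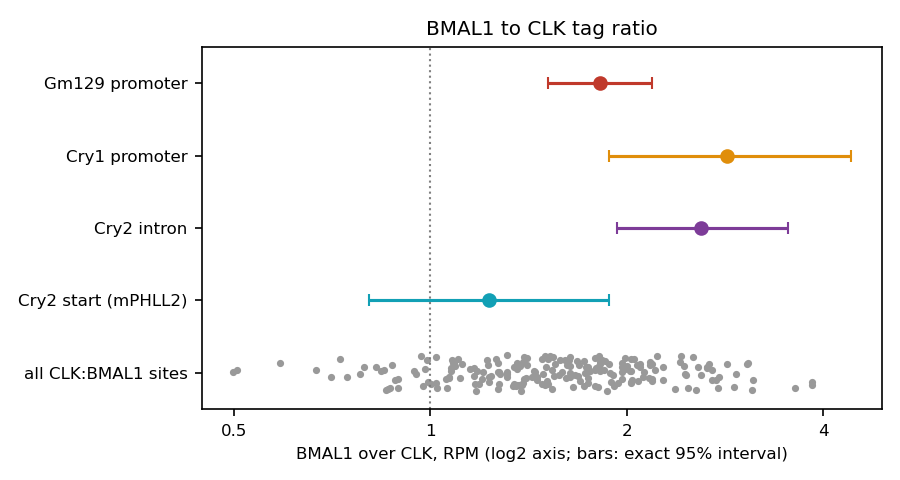
Ratio of BMAL1 to CLK in RPM on a log2 axis, with exact 95% intervals (counting error only) at Gm129, Cry1, the Cry2 intron and the Cry2 start, above the 211 CLK:BMAL1 sites (grey points, spread vertically for display). Cry1 (2.85) and the Cry2 intron (2.60) lie toward the upper end of these sites in this measure, which does not account for peak length, and the interval of the Cry2 start crosses 1 (dotted line).

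Between genes, the order of tags was the same for both factors, with Gm129 highest, then the Cry2 intron, then Cry1. In BMAL1, Gm129 had 3.86-fold the tags of Cry1 (2.98 to 5.06) and 2.12-fold those of the Cry2 intron (1.72 to 2.62), and the Cry2 intron had 1.82-fold those of Cry1 (1.36 to 2.46). In CLK, the same ratios were 6.06 (4.20 to 8.99), 3.03 (2.29 to 4.05) and 2.00 (1.31 to 3.11). These tags were summed over peaks of different length, from 478 bp to 1251 bp in CLK and from 691 bp to 1395 bp in BMAL1. Per kb of peak, Gm129 over Cry1 was 2.68 in BMAL1 and 2.32 in CLK, Gm129 over the Cry2 intron was 1.05 and 1.37, and the Cry2 intron over Cry1 was 2.55 and 1.69. In BMAL1, Gm129 and the Cry2 intron were therefore close to each other once the length of the peaks was taken into account. The fold enrichments were also closer together than the tags, with Gm129 over the Cry2 intron at 1.13 in BMAL1 and 1.52 in CLK, and Gm129 over Cry1 at 1.79 and 1.98.
A score of 100 or more for CLK as well as for BMAL1 was reached by Gm129 and the Cry2 intron but not by Cry1, whose CLK score was below it. Over all overlapping pairs, 28.3% reached it.

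**Figure D4:**
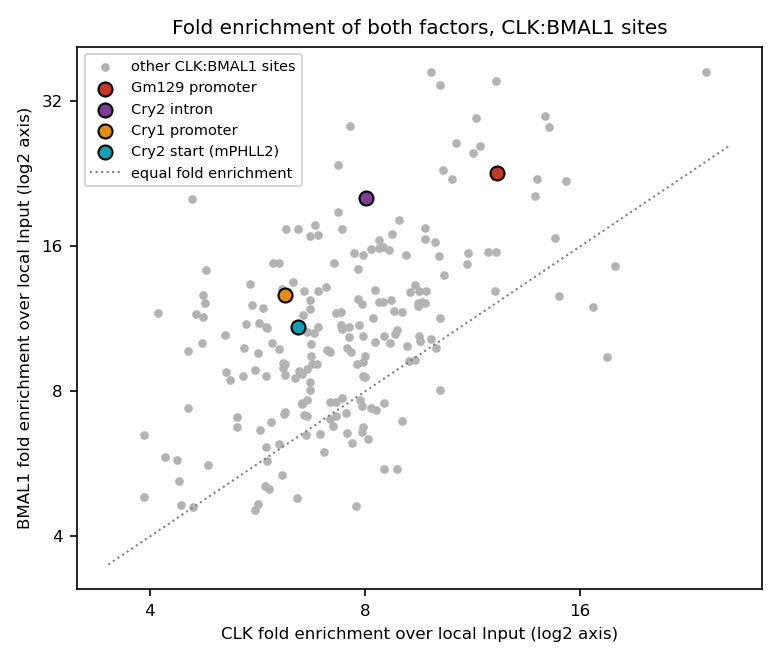
Fold enrichment over local Input of CLK (horizontal) and BMAL1 (vertical), both on log2 axes, for each CLK:BMAL1 site (grey) and for Gm129, the Cry2 intron, Cry1 and the Cry2 start (coloured); the dotted line marks equal enrichment. All 4 lie above the line, with Gm129 at 12.2 and 22.7 and Cry1 at 6.19 and 12.7.

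The CLK:BMAL1 sites of other genes with the most similar pair of fold enrichments, by distance on the log2 scale, differed for each gene. For Gm129 they were sites of Dbp (CLK 11.3, BMAL1 24.99, distance 0.18), AK036974 (13.9, 22.1, distance 0.19) and Kbtbd8 (11.6, 25.8, distance 0.20). For Cry1 they were sites of Bcat2 (6.12, 13.1, distance 0.04), which encodes a branched-chain aminotransferase, Hnf4a (6.58, 12.9, distance 0.09), which encodes a hepatocyte nuclear receptor, and Nptn (6.35, 13.5, distance 0.10). For the Cry2 intron they were sites of Eef2k (7.33, 18.9, distance 0.16), which encodes the kinase of elongation factor eEF2, Hlf (8.92, 18.1, distance 0.22) and Fam47e (7.42, 17.4, distance 0.24). The smallest of these distances were those of Cry1.

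Promoter and intronic sites were then set side by side. A distance of at most 1000 bp to the start held for 35.1% of the 211 CLK:BMAL1 sites (74), a further 35.1% lay beyond it inside a gene (74), and 29.9% lay between genes (63). Median BMAL1 fold enrichment was 10.9 at promoters, 11.7 inside genes and 9.75 between genes, and median CLK fold enrichment was 7.31, 7.86 and 7.14.
Among the 74 promoter sites, Gm129 was higher than 71 in CLK (95.9%) and 68 in BMAL1 (91.9%). Cry1 was higher than 18 in CLK (24.3%) and 46 in BMAL1 (62.2%), and the Cry2 start was higher than 22 (29.7%) and 36 (48.6%). Among the 74 sites inside genes, the Cry2 intron was higher than 43 in CLK (58.1%) and 67 in BMAL1 (90.5%). Thus Gm129 stood high in both factors, and Cry1, the Cry2 intron and the Cry2 start stood higher in BMAL1 than in CLK.
Over the median of the Gm129 and Cry1 promoters, the Cry2 intron was 1.14 in BMAL1 fold enrichment and 0.871 in CLK fold enrichment. The CLK value was 1.02 in RPM per kb of peak, and 1.25 when the Cry2 start was counted as a promoter site, so no direction can be given for CLK. The BMAL1 value rose to 1.39 in RPM per kb of peak and to 1.59 with the Cry2 start added. In BMAL1 fold enrichment, however, the intron (20.2) lay above Cry1 (12.7) and below Gm129 (22.7). The CLK value thus depended on the measure, and the BMAL1 value on which promoter was compared. No general direction between intronic and promoter sites is given here.

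**Figure D5:**
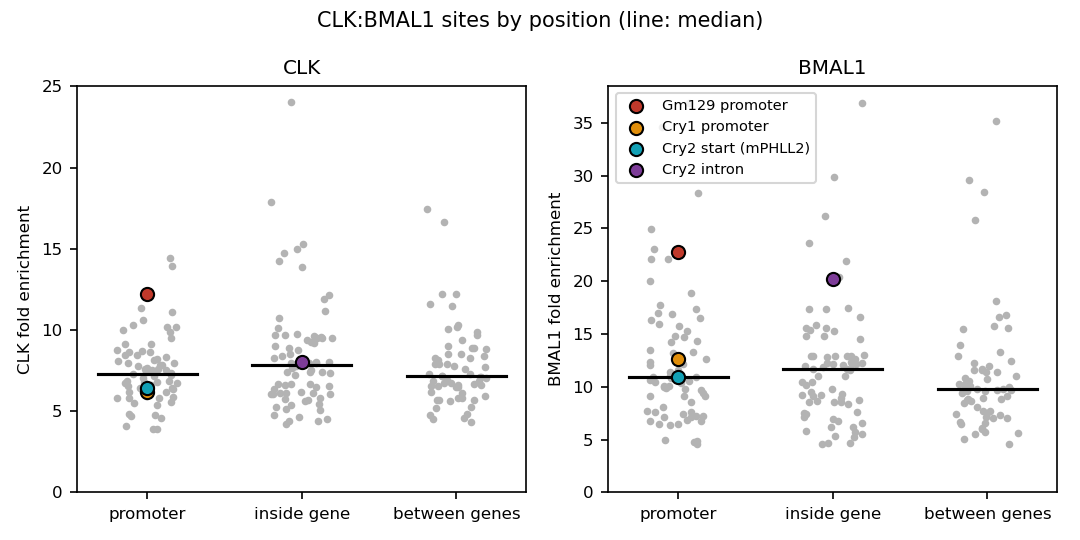
CLK (left) and BMAL1 (right) fold enrichment of each CLK:BMAL1 site at promoters (within 1000 bp of the start), inside genes and between genes; the line is the median of each class and colours mark the sites described. Gm129 lies near the top of the promoter sites in both panels, and the Cry2 intron lies near the median in CLK (8.03) and well above it in BMAL1 (20.2).

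The genes of the clock loop place these values. Of 21 genes of the transcriptional loop, 16 (76.2%) had a site of any class under their name, against 6.7% of the 22238 protein-coding genes of GENCODE M1. A CLK:BMAL1 site was found at 12 of the 21 (57.1%), against 0.724% of the protein-coding genes. Among genes with a site, the share was 12 of 16 (75%), against 10.3% of all such genes. The list was drawn up with earlier results of these data known, so that its share is not independent evidence. It also includes Cry1, Cry2 and Gm129, which were chosen by their sites and count among the 16 and the 12. For the site of highest BMAL1 score of each gene, BMAL1 fold enrichment ran from 36.9 at Nr1d1 through 34.6 at Nr1d2, 29.9 at Dbp, 29.6 at Bhlhe41, 28.4 at Per1 and 26.2 at Tef to 22.7 at Gm129 and 20.2 in the Cry2 intron. Hlf (18.15), Per2 (15.3), Per3 (14.3) and Cry1 (12.7) followed. Nr1d1 and Nr1d2 encode the REV-ERB repressors, Dbp, Tef and Hlf encode activators of the D-box, and Bhlhe41 encodes the e-box repressor DEC2.
Gm129 was therefore 7th, Cry2 8th and Cry1 last of these 12 genes, all below the median of 24.5. In CLK fold enrichment, Gm129 (12.2) was 4th, Cry2 (8.03) 10th and Cry1 (6.19) 11th, with Nr1d1 highest (24.0) and Per3 lowest (4.80). The BMAL1 peak of Nr1d1 covers 2 CLK peaks, and with the other one (9.88) Nr1d1 would be 7th in CLK and Gm129 3rd. By BMAL1 score, Gm129 was 2nd. The remaining CLK fold enrichments were 14.4 at Per1, 14.3 at Dbp, 11.4 at Bhlhe41, 10.7 at Tef, 10.2 at Nr1d2, 9.13 at Per2 and 8.92 at Hlf. Among the cryptochromes, Cry2 thus had the stronger site in both factors.
Only BMAL1 only or CLK only sites were assigned to Bhlhe40 (2 BMAL1 only), Rora (1 of each), Rorb (1 BMAL1 only) and Nfil3 (1 BMAL1 only). Clock, Npas2, Arntl and Arntl2 were among the genes with no site.

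Regulators of CRY and PER proteins were examined in the same way. Of 24 genes for ubiquitin ligases, kinases, deubiquitinases and corepressors, only Usp2, which encodes a deubiquitinase, had a site, of class BMAL1 only. This is 4.17% of the list for sites of any class and 0% for CLK:BMAL1 sites, beside the 6.7% and 0.724% of all protein-coding genes given above, so that the counts say nothing particular about these regulators.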

How the data were processed

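CLK ChIP, BMAL1 ChIP and Input were 1 library each. Per the labels and the file headers, the authors mapped 36-base reads to mm9 with Bowtie (CASAVA 1.6 is also named), kept uniquely mapped reads, and called peaks with MACS in each ChIP library against Input (p-value cutoff 1e-05, effective genome size 1890000000 bp, a model fold of 5 and a band width of 80). The lists as deposited hold, for each peak, its position, a count of tags, a score (10 times the negative log10 of the p-value), a fold enrichment (a ratio to the highest of the local Input backgrounds) and an FDR in percent. The deposited site table gives the class and nearest gene of each site. The members and gene lists were chosen with earlier results of these data known.

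Peaks were matched by 1 bp of overlap and ranked by score. Summit positions were taken as the peak start plus the deposited offset less 1. Tags were divided by the tags left after duplicate removal, and ratios were given exact binomial intervals, which cover counting error only. Words were searched in NCBIM37 with GENCODE M1 starts. In that genome, 1588 of 1590 coding transcripts of the table began with ATG, and all 2127 sites were found in the peak lists. Promoter sequences were from RefSeq (GRCm38.p6). Text names all sites of the 3 genes, list genes with a site, the 3 nearest sites by fold enrichment and the neighbours in score order. Genes lacking a symbol were kept apart by identifier. Python 3.11.15, pandas 2.3.3, scipy 1.17.1 and pyfaidx 0.9.0.4 were used, and the code was tested on simulated data. Alternatives covered the depth, width, rank measure, overlap, score, FDR, e-box window and list distance. Some genes of the lists are counted but not reported here by name. Shares over all protein-coding genes match GENCODE M1 names to the table's symbols and miss genes listed under another symbol.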

Additional observations from a re-analysis of the deposited data

How the results depend on the processing

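No paired analysis was possible because each group has 1 library, and no replicate could be left out for the same reason. Of 77 values recomputed for 31 results, 54 stayed within 1.5 times the value given or within its interval, 21 moved and 2 reversed. By fold enrichment in place of score, Gm129 ranked 12 in CLK and 14 in BMAL1, Cry1 429 and 85, the Cry2 intron 118 in CLK, the Cry2 CLK only site 236, and the Cry2 start 357 and 148. By tags, the Cry2 start ranked 87 in CLK and 173 in BMAL1. Per kb of peak, the BMAL1 to CLK ratio of Cry1 fell from 2.85 to 1.41. Between peak centres in place of summits, the distance was 101 bp at Gm129, 73.5 bp at Cry1, 18 bp in the Cry2 intron and 45.5 bp at the Cry2 start. Gm129 had 1 e-box within 100 bp of the CLK summit, but 3 within 100 bp of the BMAL1 summit, 4 anywhere in the peak and 7 words with 1 mismatch allowed. With 1 mismatch, Cry1 had 3, the Cry2 CLK only site 1 and the Cry2 start 3. The CLK fold enrichment of the Cry2 intron over the median of the member promoters turned from 0.871 to 1.02 in RPM per kb of peak and to 1.25 with the Cry2 start added.

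The number of member sites with both factors was 3, and 2 where CLK and BMAL1 both scored 100 or more (Gm129 and the Cry2 intron), 2 with an FDR of at most 5% (Gm129 and Cry1) and 4 with the Cry2 start added. Clock loop genes with a CLK:BMAL1 site were 12, and 10 with a score of at least 100 or 11 with sites within 10000 bp or inside the gene. The treatment of the Cry2 start, and its comparisons, were chosen after seeing the data. With 1 library per antibody, biological spread is unknown, and a site below the cutoff was not detectable at this depth rather than shown to be unbound.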

Other observations

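The symbol given to a site decided whether it counted as one of Cry2. Of the 211 CLK:BMAL1 sites, 175 had a GENCODE M1 start within 100 bp of their assigned start on the same strand. At 17 of these, the symbol of the table was neither the GENCODE name nor a RefSeq synonym of it. Only 1 of the 17, the Cry2 start listed under mPHLL2, belonged to a gene that had another CLK:BMAL1 site under its own symbol.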
